A study of Mus musculus with 24 samples.

Results

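The genes described here are 48 components of the mTOR signalling pathway taken from a list of gene names, out of 21900 protein-coding genes in the gene table. Their chromatin was followed through every deposited interval that overlapped a member's GRCm38 gene body extended by 5 kb on each side. That gave 760 of 299780 intervals without inhibitor and 719 of 272268 with it, of which 727 and 693 had enough reads to be tested. Each member had at least 1 interval in both tables. The number per gene ran from 1 at Mios to 73 at Rptor without inhibitor and from 1 to 68 with it, with medians of 12 and 11. No interval belonged to more than 1 member, and 57 and 60 of the intervals also lay in the body of another protein-coding gene.

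Chromatin accessibility was measured by ATAC-seq, which reads where the Tn5 transposase can insert into the DNA of isolated nuclei, in E14 mouse embryonic stem cells cultured on gelatin with serum and leukemia inhibitory factor. Of the 3 lines, 1 was wild type (WT), and in the others, Smad2_KO1 and Smad2_KO2, Smad2 had been knocked out (KO). Smad2 is a transcription factor that carries activin, nodal and TGF-beta signals to the nucleus. Each line was taken without inhibitor (Ctrl) and after 12 h in 200 nM INK128, an mTOR kinase inhibitor (Paused), with 4 libraries of 50000 cells per line and condition and 24 libraries in all. The labels do not say whether a KO line is 1 clone, or whether the 4 libraries of a group came from separate cultures. The p-values therefore measure the spread between these libraries, which may be technical.

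mTOR is a protein kinase that works in a pair of complexes. mTORC1, built on Raptor, drives protein synthesis and growth when amino acids and growth factors are present, and mTORC2, built on Rictor, phosphorylates Akt. Amino acids act through the Rag GTPases and the Ragulator complex at the lysosome, with the GATOR complexes as brakes and relays, while growth factors act through PI3K, Akt and the TSC complex on the GTPase Rheb. Inhibiting mTOR in embryonic stem cells is known to slow growth and to place them in a reversible state that resembles the dormant blastocyst of diapause.

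The Ctrl and Paused libraries stand in separate tables with their own intervals and scaling, so all tests were made within a table. A value is the number of reads in an interval, 201 bases wide except for 12 intervals in Ctrl and 6 in Paused, divided by a factor for the library, and is called normalised reads below. The test was limma on log2(value + 1) over all tested intervals of a table, with Benjamini-Hochberg adjustment over the whole table. An interval was called in both KO lines when each line differed from WT at an adjusted p under 0.05 in the same direction. The 2 lines share the WT libraries, so their agreement is not a check by independent controls. For each gene, the start interval is the strongest interval within 500 bases of the gene's start, or of either end of the gene body for Deptor, Lamtor3, Wdr24, Seh1l, Rps6kb2, Eif4ebp1 and Insr, whose start was not in the promoter table.

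Depth, as reads in intervals per library, ran from 11456986 to 20007829. In Paused it ran from 11456986 to 14763067 in WT, from 14946853 to 17115069 in Smad2_KO1 and from 13173783 to 20007829 in Smad2_KO2. Every Smad2_KO1 library there was thus deeper than every WT library, while Smad2_KO2 overlapped WT. In Ctrl the depths of the lines overlapped. Whether depth bears on the calls between lines was not tested. A start interval was found for 10 of 10 embryonic stem cell genes in Ctrl and 9 of 10 in Paused, at median levels of 175 and 147 normalised reads. The same held for 6 and 7 of 10 genes of other cell types, at medians of 23.8 and 39.5 when a gene without an interval counts as 0, and Alb, Myh6 and Ins2 had none. Single genes departed from this: Neurod1, a neuronal and endocrine gene, stood at 195 and 204, Cdx2 had an interval in Paused alone (102), Klf4 had none in Paused, and Pou5f1 was at 44.9 in Ctrl and 71.4 in Paused. At the targeted gene Smad2, 0 of 7 tested intervals in Ctrl and 2 of 11 in Paused were called in both KO lines, both higher. Its start interval differed by 0.01 and -0.02 (Ctrl, adjusted p = 0.98 and 0.911) and by -0.12 and -0.16 (Paused, adjusted p = 0.394 and 0.238) on the log2 scale, and accessibility does not check the loss of a protein. In Paused, library 2 of Smad2_KO1 and library 2 of Smad2_KO2 differed by no more than the sampling noise of their reads, with a chi-square per degree of freedom of 1.00 against 1.03 to 1.07 for the other same-numbered pairs of these lines. The labels place these libraries in different lines, so results in Paused are also given without both. In Paused, pairs of libraries within a KO line differed more, at 1.18 to 1.39 in Smad2_KO1 and 1.11 to 1.48 in Smad2_KO2. All same-numbered pairs of the 2 KO lines were thus closer there than any pair within a KO line. In Ctrl the ranges overlapped, at 1.02 to 1.27 for same-numbered pairs beside 1.11 to 1.43 and 1.16 to 1.34. The reason was not tested.

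The promoter sequences below show where the start intervals lie. They are the 250 bases before the gene start, written 5′ to 3′ on the gene's strand, from RefSeq on GRCm38.p6, the coordinates of mm10. Capitals mark the bases inside the Paused start interval, which continues into the gene for Tsc1, Depdc5, Wdr59 and Rragd. Mtor, Wdr59, Depdc5 and Tsc1 are shown because their start intervals were lower in both KO lines in Paused, and Rragd because its strongest interval near the start sat at different positions in the 2 tables. The stretches are chr4:148448332-148448581 on the plus strand for Mtor, chr8:111522108-111522357 on the minus strand for Wdr59, chr5:32863471-32863720 on the plus strand for Depdc5, chr2:28640983-28641232 on the plus strand for Tsc1 and chr4:32982748-32982997 on the plus strand for Rragd.
Mtor: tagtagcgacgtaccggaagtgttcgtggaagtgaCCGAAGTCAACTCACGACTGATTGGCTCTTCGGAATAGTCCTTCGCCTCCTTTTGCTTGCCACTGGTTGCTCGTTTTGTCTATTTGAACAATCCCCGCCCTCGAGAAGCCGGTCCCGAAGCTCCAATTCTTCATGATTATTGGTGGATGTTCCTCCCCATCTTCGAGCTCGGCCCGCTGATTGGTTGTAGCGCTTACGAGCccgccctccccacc
Wdr59: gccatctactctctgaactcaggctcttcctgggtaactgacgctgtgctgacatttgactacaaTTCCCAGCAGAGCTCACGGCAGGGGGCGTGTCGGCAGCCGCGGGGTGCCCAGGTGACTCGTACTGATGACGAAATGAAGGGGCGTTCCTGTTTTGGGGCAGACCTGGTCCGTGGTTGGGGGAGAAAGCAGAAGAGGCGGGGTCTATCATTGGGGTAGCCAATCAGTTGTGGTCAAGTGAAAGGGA
Depdc5: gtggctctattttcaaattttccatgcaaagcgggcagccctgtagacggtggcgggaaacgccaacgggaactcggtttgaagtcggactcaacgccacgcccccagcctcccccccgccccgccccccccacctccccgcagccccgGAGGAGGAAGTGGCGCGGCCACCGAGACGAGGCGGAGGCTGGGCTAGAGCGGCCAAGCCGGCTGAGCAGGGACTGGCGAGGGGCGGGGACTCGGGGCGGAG
Tsc1: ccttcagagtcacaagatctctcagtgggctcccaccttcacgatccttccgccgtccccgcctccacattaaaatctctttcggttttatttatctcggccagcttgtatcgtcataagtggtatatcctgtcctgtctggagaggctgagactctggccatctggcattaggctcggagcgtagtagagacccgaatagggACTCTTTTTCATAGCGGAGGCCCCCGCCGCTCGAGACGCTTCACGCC
Rragd: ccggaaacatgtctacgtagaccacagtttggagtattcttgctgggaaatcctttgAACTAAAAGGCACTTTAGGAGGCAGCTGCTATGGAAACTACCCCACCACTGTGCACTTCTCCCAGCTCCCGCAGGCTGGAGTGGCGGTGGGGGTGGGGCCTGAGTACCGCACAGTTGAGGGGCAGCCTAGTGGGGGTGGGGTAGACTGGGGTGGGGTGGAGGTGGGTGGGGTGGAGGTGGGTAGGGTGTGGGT

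All 201 bases of the Mtor interval fell in this window, against 185 for Wdr59, 101 for Depdc5, 47 for Tsc1 and 193 for Rragd. A promoter sequence was given for 41 of the 48 members. Their median GC content was 62.0% (from 40.3% to 82.0%), beside 56.3% over 21263 promoters of protein-coding genes.

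The start intervals of the members had a higher median level than those of all protein-coding genes. In Ctrl, 42 members had a start interval, and their median level over the 12 libraries was 272 normalised reads, beside 188 for the start intervals of all protein-coding genes. In Paused, 44 members had one, with a median of 316 beside 235. The highest start interval in both tables was that of Lamtor2, a subunit of the Ragulator scaffold on the lysosome, at 561 and 669. The lowest was that of Tbc1d7, the small subunit of the TSC complex, at 20.4 and 14.7. Akt1, Akt1s1, Stk11 and Igf1r had no interval within 500 bases of the start in either table, and Tsc1 and Irs1 had one in Paused but not in Ctrl.

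Without inhibitor, no member start interval was called in both KO lines. The count was 0 of 42 with limma, beside 3.28% of the start intervals of all protein-coding genes (2.21% called lower). At an unadjusted p under 0.05 in both lines the count was 1 (Akt2), beside 10.4% of all gene starts, and edgeR and DESeq2 on the recovered reads also gave 0. The median difference from WT was -0.10 in Smad2_KO1 and -0.04 in Smad2_KO2, beside -0.06 and -0.06 at all gene starts. The single call in 1 line was Lamtor3, another Ragulator subunit, with 122, 95.8, 103 and 86.3 normalised reads in WT, 77.8, 77.1, 64.7 and 83.2 in Smad2_KO1 and 79.2, 82.8, 79.7 and 99.6 in Smad2_KO2. Smad2_KO1 lay below all WT libraries (-0.42, SE 0.13, adjusted p = 0.0325), while Smad2_KO2 overlapped WT (-0.25, SE 0.13, adjusted p = 0.245).

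With inhibitor, 9 of 44 member start intervals were called in both KO lines, and all 9 were lower than in WT. That is 20.5%, beside 13.2% of all gene starts (11.2% called lower). The 9 were Mtor and Rptor in the mTOR complexes, Tsc1, the Ragulator subunit Lamtor4, the GATOR genes Depdc5, Wdr24 and Wdr59, and the S6 kinases Rps6kb1 and Rps6kb2. The median difference was -0.17 in each KO line, beside -0.12 and -0.14 at all gene starts. Of the 44 members, 40 were below WT in both lines, and in Ctrl 28 of 42 were. The share of all gene starts below WT in both lines was not counted, so these counts cannot be set against other genes. At an unadjusted p under 0.05 in both lines the count was 15, all lower, beside 27.3% of all gene starts. Lower starts in the KO lines were thus common to many genes in this table, and the members' share was not tested against the rest. The count was 5 without WT library 1, 5 without WT library 4, 4 without Smad2_KO1 library 3 and 15 without WT library 3. Leaving out library 2 of both KO lines gave 5, and the difference between the Ctrl and Paused tables could not be tested. For the fits with libraries left out, the share of all gene starts is not given here.

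**Figure D1:**
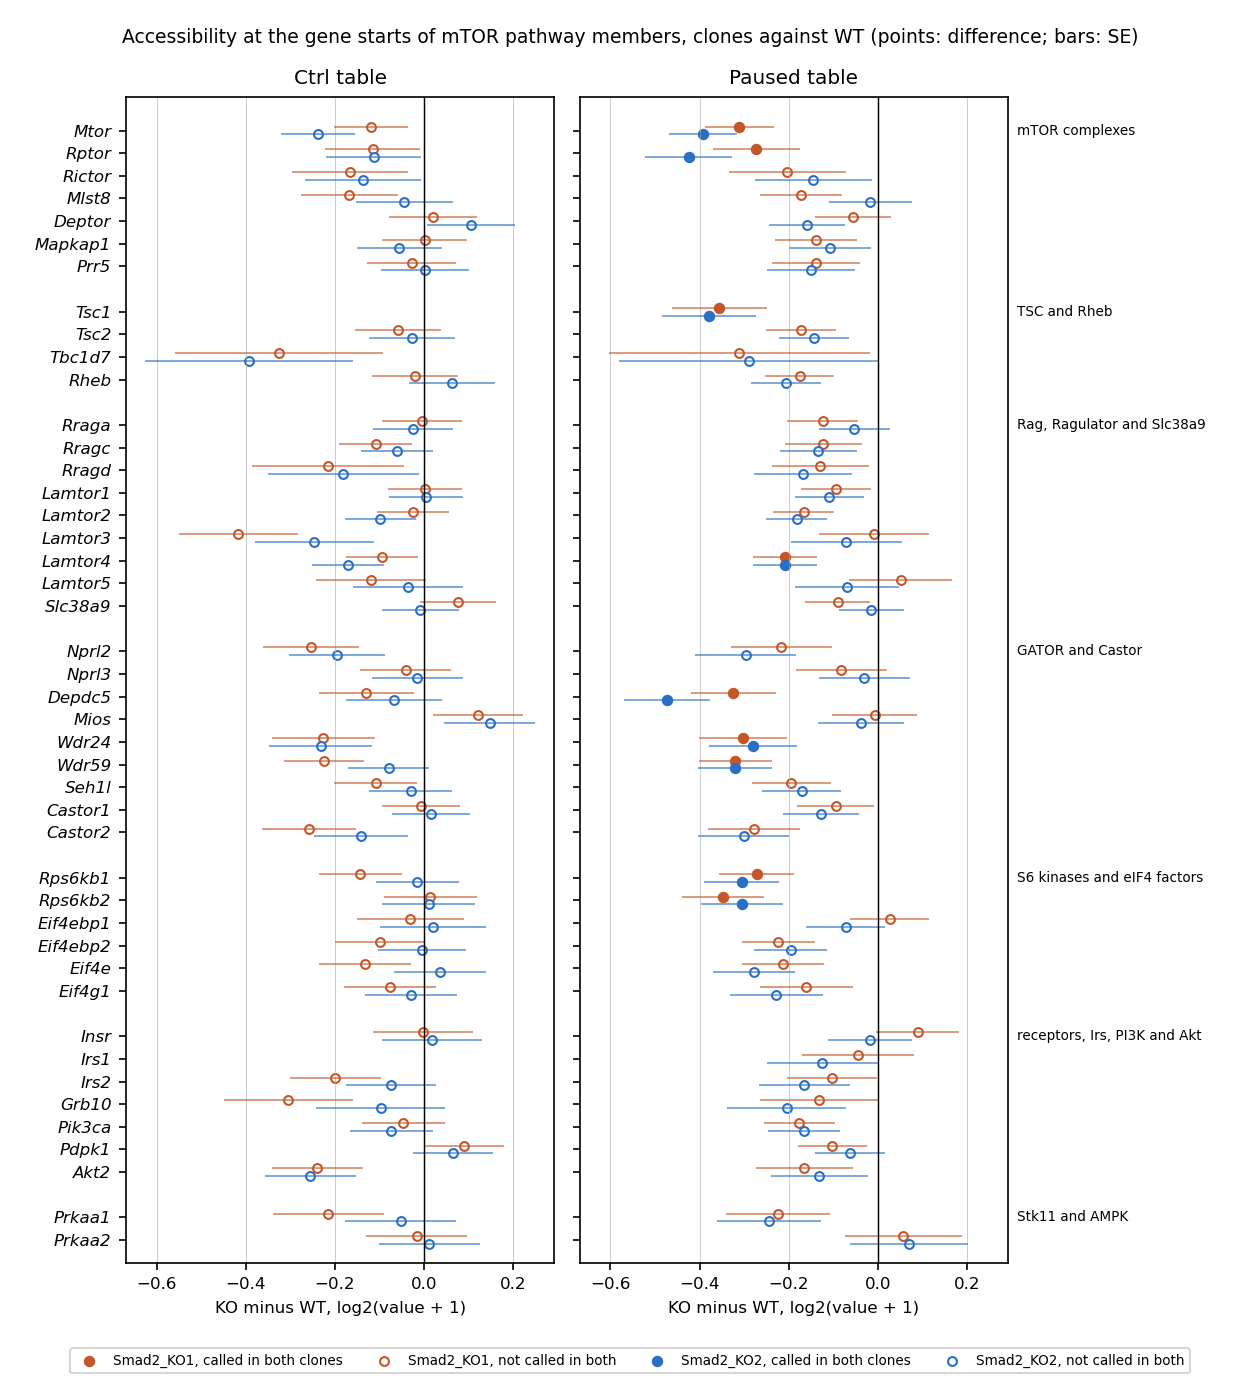
Difference of each KO line from WT at the start interval of every member that had one, in Ctrl (left) and Paused (right), on the log2(value + 1) scale with standard errors and 4 libraries per line. Filled points were called in both KO lines: 0 of 42 in Ctrl and 9 of 44 in Paused, all to the left of 0.

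Mtor encodes the kinase itself. Its start interval (chr4:148448367-148448567 in Paused) lies just before the annotated gene start. In Paused it held 629, 594, 635 and 560.2 normalised reads in the 4 WT libraries, 498, 494, 441 and 517 in Smad2_KO1 and 453, 476, 421 and 493 in Smad2_KO2. Every KO library was below every WT library. The difference was -0.31 (SE 0.08, adjusted p = 0.00372) in Smad2_KO1 and -0.39 (SE 0.08, adjusted p = 0.000399) in Smad2_KO2, and the call held in each of the 12 fits that left out 1 library and without library 2 of both KO lines (higher adjusted p of the 2 lines 0.0174). In Ctrl the interval held 529, 480.1, 482 and 499 in WT, 445, 404, 521 and 470.1 in Smad2_KO1 and 399.8, 436, 404 and 449 in Smad2_KO2. There Smad2_KO1 overlapped WT (-0.12, SE 0.08, adjusted p = 0.376) and Smad2_KO2 lay below it without passing the test (-0.24, SE 0.08, adjusted p = 0.0528).

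Among the partners of mTOR, Rptor encodes Raptor, the scaffold of mTORC1. Its Paused start interval (chr11:119602840-119603040) held 261, 224, 229 and 258 in WT, 211, 191, 192 and 209.6 in Smad2_KO1 and 191, 196, 159 and 178 in Smad2_KO2. All KO libraries were below all WT libraries (-0.27, SE 0.10, adjusted p = 0.0416, and -0.42, SE 0.10, adjusted p = 0.00195). This call was lost without WT library 1 or 4 or any 1 of the Smad2_KO1 libraries (higher adjusted p up to 0.116), without library 2 of both KO lines (0.125) and with DESeq2 (0.0665). In Ctrl the same interval held 186, 159, 169 and 178 in WT, 174, 143, 155 and 167 in Smad2_KO1 and 152, 146, 175 and 167 in Smad2_KO2, with overlapping lines (-0.11 and -0.11, adjusted p = 0.527 and 0.549).

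The remaining subunits did not pass the test at their starts. For Rictor, the scaffold of mTORC2, Paused values were 179, 116, 121 and 169.5 in WT, 151, 122, 117 and 111 in Smad2_KO1 and 161, 119, 111 and 133 in Smad2_KO2, overlapping throughout (-0.20 and -0.14, adjusted p = 0.281 and 0.462). The Ctrl start interval of Rictor lay 194 bases from the Paused one, with 220.0, 152, 123 and 195 in WT, 165, 117, 142 and 184 in Smad2_KO1 and 158, 142, 159 and 153 in Smad2_KO2, which also overlapped. Deptor, an inhibitory subunit that binds mTOR, held 438, 351, 333 and 399.9 in WT, 367, 347, 364 and 380.4 in Smad2_KO1 and 342, 352, 326 and 337 in Smad2_KO2 in Paused. The lines overlapped (-0.05 and -0.16, adjusted p = 0.686 and 0.183), as they did in Ctrl (0.02 and 0.11, adjusted p = 0.919 and 0.54). The starts of Mlst8, the subunit common to both complexes, and of the mTORC2 subunits Mapkap1 and Prr5 differed by -0.17 and -0.02, -0.14 and -0.11, and -0.14 and -0.15 in Paused. None of these passed.

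The TSC complex switches Rheb off. The Paused start interval of Tsc1 (chr2:28641186-28641386), which encodes its stabilising subunit, held 282, 215, 196 and 281 in WT, 181, 191, 174 and 205 in Smad2_KO1 and 192, 180.0, 173 and 195 in Smad2_KO2. WT libraries 1 and 4 stood well above the KO range, while library 3, at 196, lay inside it. The difference was -0.36 (SE 0.11, adjusted p = 0.0152) and -0.38 (SE 0.11, adjusted p = 0.01), and the call was lost without WT library 1 or 4 or Smad2_KO1 library 3 (higher adjusted p up to 0.0720). Tsc2, the GTPase-activating subunit, held 456, 424, 414 and 486 in WT, 420.0, 376, 382 and 399 in Smad2_KO1 and 376, 412, 404 and 419 in Smad2_KO2. In each KO line 1 library exceeded the lowest WT library, and neither line passed (-0.17 and -0.14, adjusted p = 0.117 and 0.202). With the DESeq2 size factors it did pass (higher adjusted p = 0.0483).

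Rheb is the GTPase that activates mTORC1. In Paused its start interval held 619, 511, 495 and 588 in WT, 490.3, 479, 485 and 497 in Smad2_KO1 and 508, 447, 497 and 459 in Smad2_KO2. The ranges overlapped at the low end of WT (-0.18 and -0.21, adjusted p = 0.106 and 0.0563), and the call was made without WT library 3 (higher adjusted p = 0.0335) and with DESeq2 size factors or TMM factors (0.0219 and 0.0258). In Ctrl, Rheb and Tsc2 were close to WT in both KO lines, at -0.02 and 0.06 for Rheb and -0.06 and -0.03 for Tsc2. The weak start interval of Tbc1d7 did not pass in either table (adjusted p from 0.295 to 0.514).

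Among the GATOR genes, Depdc5, a subunit of the GATOR1 brake on the Rag GTPases, had the largest fall at a start in 1 line. In Paused its interval (chr5:32863620-32863820) held 481, 374, 330.1 and 437 in WT, 327, 285, 309 and 366 in Smad2_KO1 and 285, 289, 274 and 308 in Smad2_KO2. Smad2_KO2 was wholly below WT (-0.47, SE 0.10, adjusted p = 0.000581), and Smad2_KO1 overlapped it in 1 library (-0.32, SE 0.10, adjusted p = 0.0144). The call was lost without WT library 1 or Smad2_KO1 library 2 (higher adjusted p up to 0.0816) and without library 2 of both KO lines (0.0960). Wdr59 and Wdr24 are subunits of GATOR2, which restrains GATOR1. Wdr59 (chr8:111522092-111522292) held 513, 458, 433 and 516 in WT, 388, 396, 348 and 404 in Smad2_KO1 and 377, 352, 384 and 424 in Smad2_KO2. The lines did not overlap (-0.32, SE 0.08, adjusted p = 0.00548, and -0.32, SE 0.08, adjusted p = 0.00553), and the call held in all 12 fits with 1 library left out and without library 2 of both KO lines (0.0461).

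Wdr24 (chr17:25823528-25823728) held 190.0, 217, 206 and 187 in WT, 168, 169, 147 and 164 in Smad2_KO1 and 152, 166, 166 and 174 in Smad2_KO2. It was lower in every KO library (-0.30, SE 0.10, adjusted p = 0.0275, and -0.28, SE 0.10, adjusted p = 0.0417). Of the 12 fits with 1 library left out, 6 lost this call (WT library 2 or 3, Smad2_KO1 library 3, Smad2_KO2 library 1, 2 or 3; higher adjusted p up to 0.126). It was also lost without library 2 of both KO lines (0.0897) and with DESeq2 (0.0724). Castor2, a homologue of the arginine sensor Castor1, passed in Smad2_KO2 alone (-0.28 and -0.30, adjusted p = 0.0508 and 0.0339). Castor1, the GATOR1 subunits Nprl2 and Nprl3 and the GATOR2 subunits Mios and Seh1l did not pass in either line, with differences from -0.30 (Nprl2) to -0.01 (Mios).

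At the Rag GTPases and Ragulator, the scaffold that holds them on the lysosome, 6 of 9 starts stood between 416 and 669 normalised reads over both tables, and Lamtor3, Lamtor5 and Rragd were below the median of all gene starts in both. Lamtor4 was the only one of 9 called in Paused, and its differences were the smallest of the 9 calls. Its interval (chr5:138255606-138255806) held 721, 629, 668 and 657 in WT, 591, 602, 531 and 590.0 in Smad2_KO1 and 550.3, 568, 589 and 606 in Smad2_KO2. The KO libraries were all below WT (-0.21, SE 0.07, adjusted p = 0.0345, and -0.21, SE 0.07, adjusted p = 0.0351), but the call held in only 3 of the 12 fits with 1 library left out, those without WT library 2, WT library 3 or Smad2_KO2 library 4. Without library 2 of both KO lines the higher adjusted p was 0.111. Lamtor2 came next (-0.17 and -0.18, adjusted p = 0.0791 and 0.0558). Rraga, Rragc, Rragd, Lamtor1, Lamtor3, Lamtor5 and Slc38a9, an amino acid transporter that signals lysosomal arginine, did not pass, with differences from -0.17 (Rragd) to 0.05 (Lamtor5).

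Of the proteins that mTORC1 phosphorylates, the S6 kinases promote translation. Rps6kb1 in Paused (chr11:86544744-86544944) held 469.6, 391, 410.0 and 478 in WT, 364, 379, 345 and 356 in Smad2_KO1 and 337, 367, 327 and 381 in Smad2_KO2. Every KO library was below every WT library (-0.27, SE 0.08, adjusted p = 0.0185, and -0.31, SE 0.08, adjusted p = 0.00849), and the call was lost without WT library 4 or Smad2_KO1 library 3 (higher adjusted p up to 0.0726). Rps6kb2 (chr19:4163301-4163501) held 300.1, 295, 272 and 313 in WT, 251, 229, 216 and 230.4 in Smad2_KO1 and 219, 255, 221 and 261 in Smad2_KO2. It too was lower without overlap (-0.35, SE 0.09, adjusted p = 0.00635, and -0.30, SE 0.09, adjusted p = 0.0161), and this call was lost without Smad2_KO2 library 1 or 3 (up to 0.0681). In Ctrl, Rps6kb2 differed by 0.01 and 0.01 and Rps6kb1 by -0.14 and -0.01, none of which passed.

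**Figure D2:**
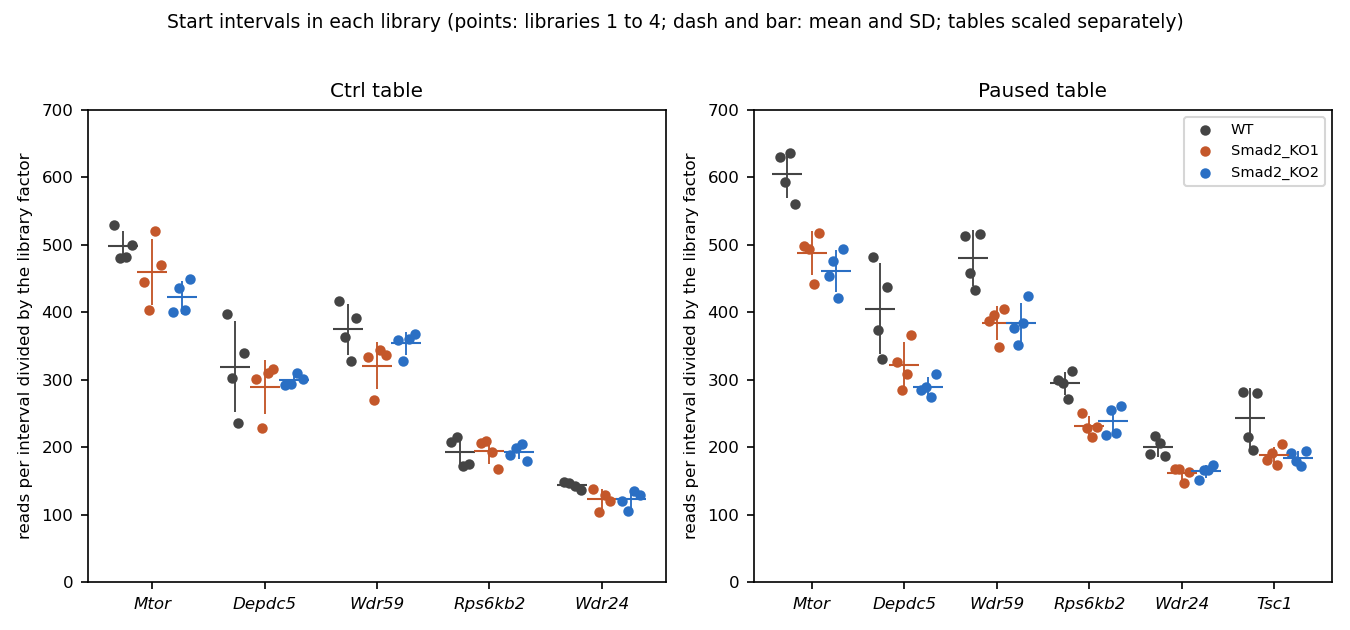
Normalised reads in each library at the start intervals of 6 genes called lower in Paused, by line, with means and standard deviations (n = 4); Tsc1 had no start interval in Ctrl, and the 2 tables were scaled separately. In Paused the Mtor libraries of WT sit between 560.2 and 635, above the KO range of 421 to 518.

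Eif4ebp1 and Eif4ebp2 encode repressors that hold the cap-binding protein Eif4e until mTORC1 phosphorylates them. In Paused, Eif4ebp1 held 453, 366, 342 and 441 in WT, 382, 378, 429 and 435 in Smad2_KO1 and 385, 412, 350.2 and 369.8 in Smad2_KO2. The lines overlapped (0.03 and -0.07, adjusted p = 0.861 and 0.601). Its Ctrl interval lay 215 bases away and held 116, 132, 103 and 124 in WT, 119, 111, 126 and 109 in Smad2_KO1 and 129, 125, 99.9 and 129 in Smad2_KO2, again overlapping. Eif4ebp2 passed in Smad2_KO1 alone (-0.22 and -0.20, adjusted p = 0.0471 and 0.0836) and Eif4e in Smad2_KO2 alone (-0.21 and -0.28, adjusted p = 0.095 and 0.0288). Eif4g1, the scaffold of the cap-binding complex, passed in neither line.

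Upstream of mTOR, none of the 7 start intervals of the receptors, Irs, PI3K and Akt genes and neither of the AMPK genes was called in Paused. The insulin receptor Insr differed by 0.09 and -0.02, the adaptors Irs1 and Irs2 by -0.04 and -0.12 and by -0.10 and -0.16, and Grb10, an inhibitory adaptor, by -0.13 and -0.20. Pik3ca, the catalytic subunit of PI3K, differed by -0.18 and -0.17, Pdpk1, the kinase that activates Akt, by -0.10 and -0.06, and Akt2 by -0.16 and -0.13. For the catalytic subunits of AMPK, an energy sensor that restrains mTORC1, the differences were -0.22 and -0.24 at Prkaa1 and 0.06 and 0.07 at Prkaa2, the 1 member above WT in both lines in Paused.

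How the libraries are scaled moves these counts. With DESeq2 size factors or TMM factors in place of the authors' scaling, the median over all tested Paused intervals fell from 0.12 to 0.02 or 0.03. The Paused start calls then numbered 16 or 15 of 44 (36.4% or 34.1%), all lower, beside 28.7% or 26.4% of all gene starts. The Ctrl calls numbered 1 of 42 with either (2.38%), beside 6.54% or 6.12% of all gene starts.

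Over all member intervals in Ctrl, starts included, 75 of 727 differed from WT in Smad2_KO1 (42 higher, 33 lower) and 58 in Smad2_KO2 (33 higher, 25 lower), where 11.6% and 10.7% of all tested intervals were called. In both lines 46 were called, 6.33% beside 7.15% of all intervals. Of these, 26 were higher (3.95% of all intervals) and 20 lower (3.2%). In Paused, 123 of 693 were called in Smad2_KO1 (88 higher, 35 lower) and 121 in Smad2_KO2 (79 higher, 42 lower), beside 19.4% and 19.3%. Both lines called 83, or 12.0% beside 13.9%, with 55 higher (9.01% of all intervals) and 28 lower (4.92%). The shares at the members were thus a little under those of the genome in both tables.

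The direction of the calls went with the level of the interval and with the scaling. The higher calls had a median level of 23.0 normalised reads in Ctrl and 24.6 in Paused. The medians of all tested member intervals were close to these, at 21.2 and 24.0. The lower calls sat at stronger intervals, with 34.6 and 107. The order was the same over all tested intervals of the genome. There the higher calls had medians of 27.7 and 25.6 and the lower calls 45.6 and 89.1. With DESeq2 size factors the split of higher against lower calls was 16 to 26 in Ctrl and 31 to 50 in Paused, and with TMM factors 16 to 25 and 32 to 48. The counts also depended on single libraries. In Ctrl 30 calls were left without WT library 4. In Paused 50 were left without Smad2_KO1 library 2 and 46 without Smad2_KO2 library 2. Without library 2 of both KO lines the counts were 25 in Ctrl and 36 in Paused, beside 4.3% and 7.03% of all intervals.

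**Figure D3:**
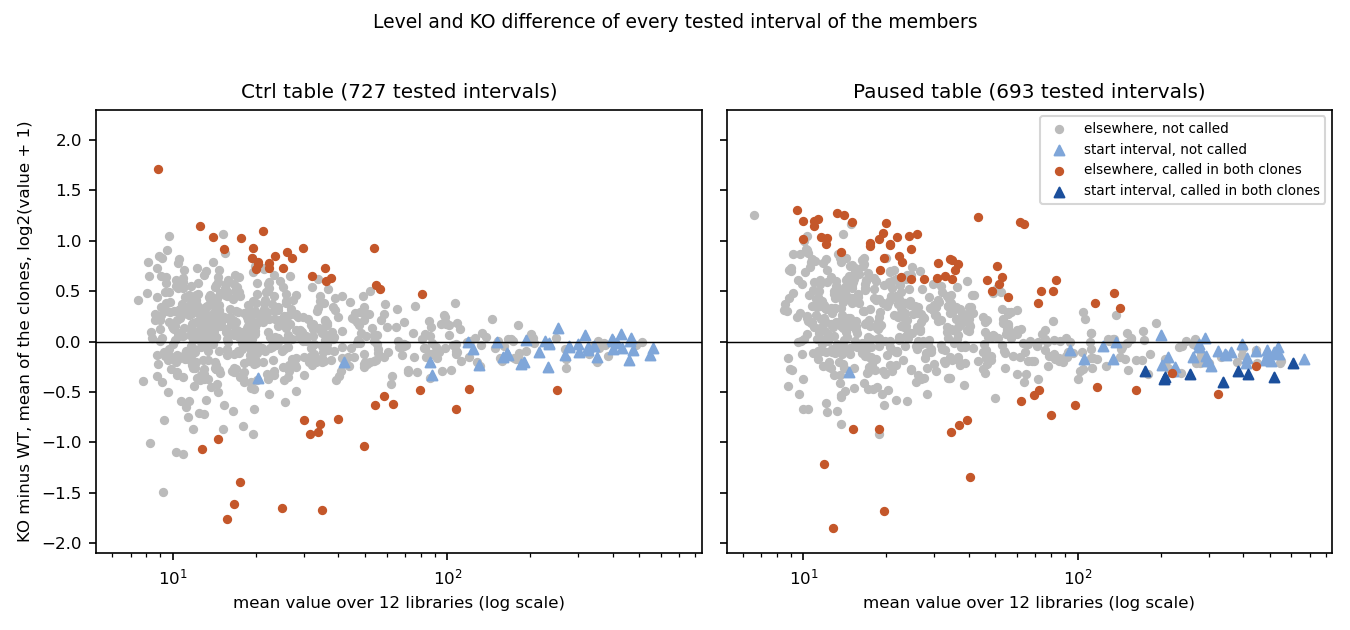
Mean of the 2 KO-minus-WT differences (log2(value + 1)) against the mean level over 12 libraries (log axis) for each tested interval of the members, 727 in Ctrl and 693 in Paused. Called intervals above 0 lie mostly at low levels, and the called start intervals (dark triangles, Paused) are strong intervals below 0.

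The calls were spread over 24 members in Ctrl and 29 in Paused, and 39 of 46 and 74 of 83 lay inside the gene body. By role, the counts largely followed the number of intervals tested, and the shares can be read beside 7.15% of all intervals in Ctrl and 13.9% in Paused. The mTOR complexes held 8 higher and 7 lower of 229 in Ctrl (6.55%) and 16 and 12 of 207 in Paused (13.5%). The GATOR and Castor genes held 7 and 3 of 102 (9.8%), then 11 and 6 of 102 (16.7%). The receptors, Irs, PI3K and Akt genes held 7 and 4 of 180 (6.11%), then 13 and 4 of 184 (9.24%). The TSC and Rheb genes held 0 and 2 of 52 (3.85%), then 5 and 2 of 45 (15.6%). The S6 kinases and eIF4 factors held 1 and 2 of 68 (4.41%), then 4 and 3 of 65 (10.8%). The AMPK genes with Stk11 held 2 and 0 of 35 (5.71%), then 5 and 0 of 27 (18.5%), and the Rag and Ragulator genes with Slc38a9 held 1 and 2 of 61 (4.92%), then 1 and 1 of 63 (3.17%). No role was tested against the rest. Among single genes in Paused, Deptor had 8 higher and 1 lower of 34, Rptor 4 and 6, and Wdr59 6 higher of 15 beside its lower start. Eif4e, Insr, Lamtor1, Lamtor5, Mios, Mlst8, Nprl2, Pdpk1, Prr5, Rraga, Rragd, Seh1l and Slc38a9 had no interval called in both KO lines in either table.

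Of the called intervals, 20 were called in both tables, all 20 in the same direction, which is 43.5% of the Ctrl calls and 24.1% of the Paused calls. Over all intervals 10240 were called in both tables, 50.8% of the Ctrl calls and 28.2% of the Paused calls, and 10240 of these had the same direction, so the members' shares were a little under those of the genome. The higher ones lay at Deptor (3), Grb10 (2), Rptor (2), Castor1, Castor2 and Pik3ca. The lower ones lay at Depdc5 (2), Deptor, Igf1r, Irs2, Mapkap1, Mtor, Rheb, Rictor and Rptor.

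Deptor and Wdr59 had the most higher calls of the members in Paused. They were picked for these counts, so their shares are a description and not a test. There 8 of 34 tested Deptor intervals were called higher (23.5%) and 6 of 15 at Wdr59 (40.0%), beside 9.01% of all intervals. In Ctrl it was 3 of 43 at Deptor (6.98%) and 0 of 16 at Wdr59, beside 3.95% of all intervals. The Wdr59 calls were weak intervals, with mean levels from 9.46 to 22.7 normalised reads. The Deptor interval at chr15:55206438-55206638 held 24.6, 41.2, 38.3 and 30.2 normalised reads in WT in Ctrl, 53.0, 81.2, 63.7 and 60.1 in Smad2_KO1 and 71.2, 70.1, 59.5 and 53.3 in Smad2_KO2. Its Paused counterpart (chr15:55206448-55206648) held 22.7, 46.2, 36.7 and 26.5 in WT, 87.4, 94.2, 63.9 and 52.6 in Smad2_KO1 and 93.9, 85.5, 70.7 and 55.8 in Smad2_KO2. All KO libraries exceeded all WT libraries in both tables. The differences were 0.93 (SE 0.17, adjusted p = 0.000138) and 0.92 (SE 0.17, adjusted p = 0.000172) in Ctrl and 1.17 (SE 0.19, adjusted p = 3.21e-05) and 1.21 (SE 0.19, adjusted p = 1.92e-05) in Paused. A second Paused interval of Deptor (chr15:55199703-55199903) held 24.8, 16.1, 18.3 and 30.5 in WT, 59.9, 68.9, 57.9 and 57.6 in Smad2_KO1 and 42.0, 63.0, 40.4 and 39.4 in Smad2_KO2, with differences of 1.44 and 1.02. The groups again did not overlap, and both lines passed (adjusted p = 1.2e-06 and 0.000178).

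Weaker gains in Deptor were seen at chr15:55167612-55167812 in Ctrl, with a mean of 15.3 ± 4.09 (SD, n = 4) in WT, 28.0 ± 5.16 in Smad2_KO1 and 27.4 ± 2.16 in Smad2_KO2. DESeq2 did not call this one (higher adjusted p = 0.0684). At chr15:55195773-55195973 in Paused the means were 10.2 ± 1.04, 23.7 ± 7.6 and 26.2 ± 6.41. One Deptor interval moved the other way (chr15:55142450-55142650), with 51.8, 29.0, 66.9 and 78.1 in WT, 32.3, 27.2, 26.8 and 38.7 in Smad2_KO1 and 28.0, 29.2, 33.7 and 29.5 in Smad2_KO2 in Paused. Here WT library 2 lay within the KO range (-0.76 and -0.80, adjusted p = 0.00802 and 0.00549), and the call was lost without WT library 4 (higher adjusted p = 0.0533).

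Gains at other members followed the same form. Inside Rptor, chr11:119813438-119813638 held 38.9, 40.8, 36.7 and 22.5 in WT, 76.0, 93.3, 64.8 and 62.6 in Smad2_KO1 and 81.9, 88.5, 85.3 and 70.0 in Smad2_KO2 in Paused. No library overlapped (1.09, SE 0.16, adjusted p = 1.14e-05, and 1.24, SE 0.16, adjusted p = 1.7e-06), and the matched Ctrl interval was higher as well (0.61 and 0.86, adjusted p = 0.041 and 0.00377). Inside Depdc5, chr5:32966069-32966269 rose in Paused from a mean of 13.9 ± 3.09 (SD, n = 4) to 27.4 ± 2.44 and 31.3 ± 5.01 (adjusted p = 0.00179 and 0.000325). In Ctrl, an interval in Castor2 (chr5:134125655-134125855) rose from 11.9 ± 4.18 to 23.9 ± 4.66 and 27.9 ± 2.14 (adjusted p = 0.00382 and 0.000422). One in Pik3ca (chr3:32408926-32409126) rose from 18.4 ± 4.97 to 36.5 ± 1.62 and 34.3 ± 8.08 (adjusted p = 0.000905 and 0.00356), with 1 KO library inside the WT range. One in Stk11, the kinase that activates AMPK, lay at chr10:80121738-80121938 and rose from 17.6 ± 3.62 to 32.4 ± 5.22 and 31.2 ± 3.54 (adjusted p = 0.00387 and 0.00664).

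Large losses lay inside Igf1r and Depdc5, and the WT libraries spread widely there. Igf1r encodes the receptor for insulin-like growth factors. Its interval at chr7:68021845-68022045 held 35.2, 24.2, 90.9 and 130.5 in WT, 15.4, 18.5, 15.0 and 15.0 in Smad2_KO1 and 27.1, 14.6, 14.9 and 19.1 in Smad2_KO2 in Ctrl. In Paused it held 48.6, 21.5, 122 and 105 in WT, 14.2, 31.7, 24.2 and 26.8 in Smad2_KO1 and 27.0, 23.2, 22.4 and 20.8 in Smad2_KO2. WT libraries 3 and 4 were several times the KO level in both tables, while WT library 2 was within the KO range in each. The differences were -1.77 (SE 0.28, adjusted p = 1.97e-05) and -1.58 (SE 0.28, adjusted p = 0.000112) in Ctrl and -1.34 (SE 0.29, adjusted p = 0.00098) and -1.35 (SE 0.29, adjusted p = 0.000996) in Paused.

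Depdc5 showed the same order of WT libraries at chr5:32930848-32931048, with 33.1, 24.2, 51.5 and 84.1 in WT, 13.7, 15.4, 8.43 and 13.9 in Smad2_KO1 and 17.0, 17.3, 9.56 and 12.1 in Smad2_KO2 in Ctrl. There every WT library was above every KO library (-1.71, SE 0.27, adjusted p = 1.87e-05, and -1.60, SE 0.27, adjusted p = 5.13e-05). Inside Rheb, chr5:24821565-24821765 held 42.7, 29.6, 57.0 and 71.2 in WT, 27.4, 26.7, 22.5 and 25.4 in Smad2_KO1 and 22.1, 32.8, 21.2 and 25.2 in Smad2_KO2 in Ctrl, and WT libraries 3 and 4 were again the highest. In Paused the matched interval held 32.4, 32.2, 77.7 and 75.5 in WT and from 23.6 to 32.8 in the KO lines. Both tables passed (-0.88 and -0.91, adjusted p = 0.00311 and 0.00242 in Ctrl; -0.79 and -0.86, adjusted p = 0.00962 and 0.00506 in Paused). The Paused call at Rheb was lost without WT library 3 or 4 (higher adjusted p 0.0600 and 0.0625). Whether the WT libraries with these numbers share a culture or a day is not given in the labels, and their part in these results was not tested.

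Mtor itself had 1 higher and 2 lower calls in Ctrl, all inside the gene. The higher one, at chr4:148464926-148465126, rose from a mean of 13.4 in WT to 22.9 in Smad2_KO1 and 24.8 in Smad2_KO2 (adjusted p = 0.0266 and 0.0115). In Ctrl, chr4:148487532-148487732 held 58.8, 65.4, 94.2 and 85.2 in WT, 31.6, 30.8, 45.9 and 47.4 in Smad2_KO1 and 32.1, 31.9, 34.0 and 36.2 in Smad2_KO2. The KO and WT libraries did not overlap (-0.95, SE 0.17, adjusted p = 0.000169, and -1.13, SE 0.17, adjusted p = 1.14e-05), and the interval was not called in Paused. A weaker interval, chosen after its values were seen because it was called in both tables, lay at chr4:148510801-148511001 and held 17.1, 12.5, 44.9 and 57.2 in WT, 5.13, 6.17, 9.37 and 8.09 in Smad2_KO1 and 13.0, 7.28, 10.6 and 9.06 in Smad2_KO2 in Ctrl. WT libraries 3 and 4 were again the highest. It was lower in Paused too (-2.03 and -1.66, adjusted p = 0.00028 and 0.00233). In Paused, chr2:34570464-34570664 inside Mapkap1 held 107, 92.3, 99.3 and 136 in WT, 73.2, 55.3, 70.0 and 81.4 in Smad2_KO1 and 60.9, 57.0, 60.6 and 61.3 in Smad2_KO2, with no overlap (-0.63, SE 0.14, adjusted p = 0.00144, and -0.83, SE 0.14, adjusted p = 5.72e-05). Depdc5 lost signal at chr5:32910605-32910805 in Paused, from 50.1 ± 8.27 (SD, n = 4) to 30.9 ± 1.98 and 22.7 ± 4.42 (adjusted p = 0.00959 and 5.82e-05). In Ctrl, a Castor2 interval at chr5:134131678-134131878 fell from 46.4 ± 10.8 to 23.0 ± 6.14 and 25.2 ± 3.34 (adjusted p = 0.000928 and 0.00547).

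**Figure D4:**
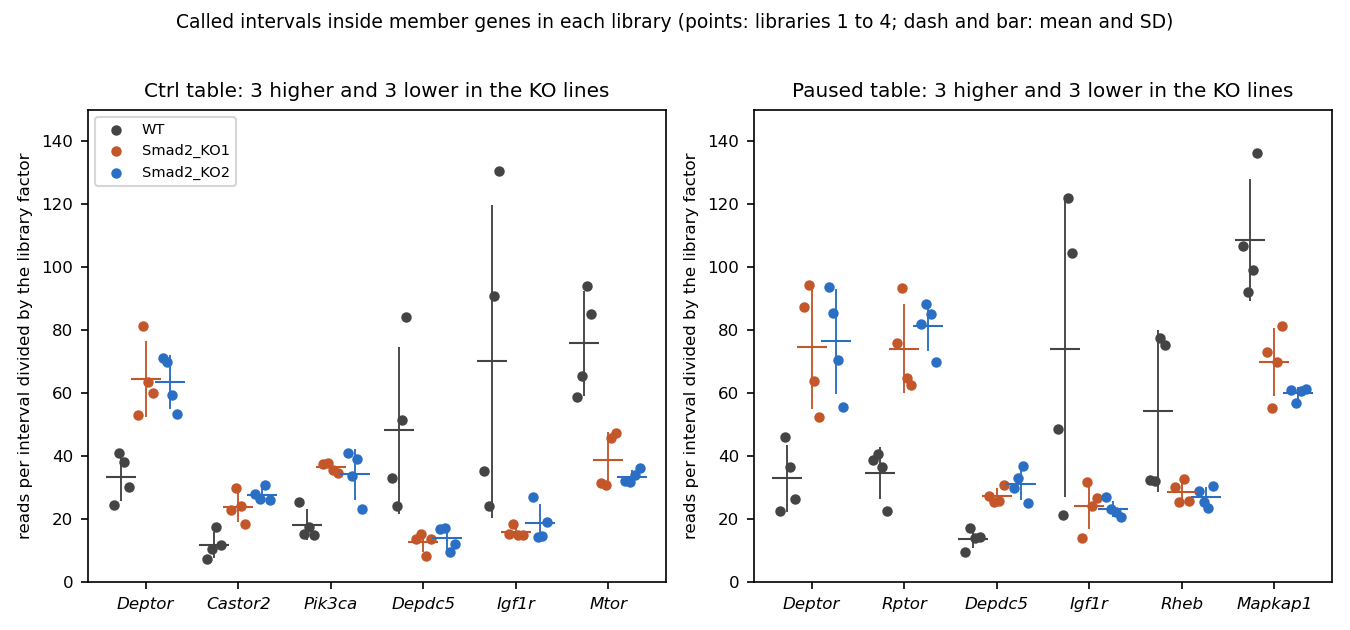
Normalised reads in each library at 6 called intervals per table, 3 higher and 3 lower in the KO lines, with means and standard deviations (n = 4); each is named by the gene it lies in. The WT points of Igf1r spread from 24.2 to 130 in Ctrl, while the KO points stay between 14.6 and 27.1.

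The authors' deposited table compares the 8 KO libraries with the 4 WT libraries. At a false discovery rate under 0.05 it lists 72 of 760 member intervals in Ctrl (39 higher, 33 lower), or 9.47% beside 12.2% of all its intervals. For Paused the authors' deposited table lists 140 of 719 (83 higher, 57 lower), or 19.5% beside 21.6%. It includes 46 of the 46 Ctrl calls and 82 of the 83 Paused calls given above.

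What the inhibitor did to the members' starts in WT can only be described, since the tables were scaled separately. At 37 members the same start interval was found in both tables. The difference of the WT group means, Paused minus Ctrl on the log2(mean + 1) scale and centred on the median of 208526 matched intervals (0.09), was above 0 at 37 of 37, from 0.005 at Lamtor5 to 0.52 at Rps6kb2, with a median of 0.21. Over 11795 start intervals of all protein-coding genes the median was 0.20, and 10058 were above 0. The members' starts therefore sat about where other gene starts sat. When the difference was instead centred within deciles of level, the members' median was 0.04, as it was for all gene starts (0.04). The 4 Paused WT libraries were all above the 4 Ctrl ones, after centring, at 8 of 37 members (21.6%) beside 17.3% of all gene starts, and all below at 0 beside 1.31%.

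The members furthest up were in several roles. Rps6kb2 held 207, 215, 172 and 176 normalised reads in WT in Ctrl and 300.1, 295, 272 and 313 in Paused, a centred difference of 0.52, at the 93.1 percentile of all gene starts. Mlst8 held 246, 232, 211 and 215 in Ctrl and 415, 314, 277 and 360.2 in Paused, a difference of 0.50 between intervals shifted by 49 bases. For both genes all Paused libraries were above all Ctrl libraries. Rptor (0.40), Rheb (0.40), Wdr24 (0.38), Eif4ebp2 (0.35), Prr5 (0.33) and Prkaa2 (0.30) followed. In the first 4 of these the WT libraries also separated, and in Prr5 and Prkaa2 they overlapped. At Mtor the difference was 0.19 with overlapping libraries, at Rps6kb1 0.28, at Tsc2 0.26 and at Deptor 0.21.

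In the KO lines the members' median, centred in the same way, was 0.13 in Smad2_KO1 and 0.07 in Smad2_KO2, beside 0.12 and 0.09 for all gene starts. At Mtor it was -0.02 and 0.02, at Depdc5 0.05 and -0.16 and at Rps6kb1 0.13 and -0.03. Mlst8 was up in all 3 lines (0.50 in WT, 0.45 and 0.50 in the KO lines), as was Prkaa2 (0.30, 0.30 and 0.31). Values above 0 were usual, at 32 of 37 members in Smad2_KO1 and 30 in Smad2_KO2. Over all gene starts, 8888 and 8440 of 11795 were above 0. The difference between lines was not tested, and a start called lower in the KO lines in Paused enters these values.

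**Figure D5:**
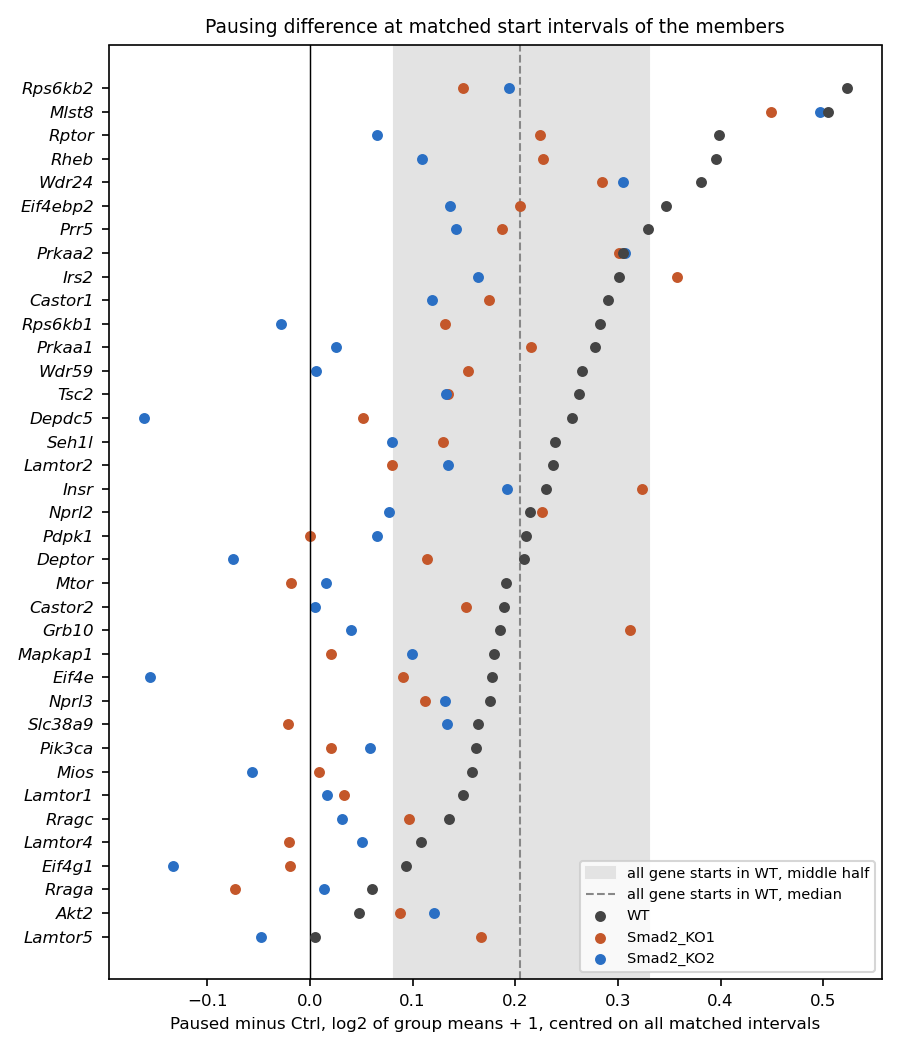
Paused minus Ctrl difference of the group means (log2 of mean + 1, centred on all matched intervals) at the 37 matched start intervals of the members, by line, 4 libraries per line and table. WT points run from 0.005 to 0.52 around the median of all gene starts, 0.20 (dashed), with the range between the quartiles shaded from 0.08 to 0.33.

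At 534 matched member intervals, starts included, the WT difference had a median of 0.05. The 4 Paused libraries were all above the 4 Ctrl ones at 56 and all below at 35, where 9.74% and 8.1% of all matched intervals were so. The examples that follow, the 3 highest and 2 lowest differences and an interval in Igf1r, were chosen after their values were seen, and none was a start interval. Inside Mtor, the interval at chr4:148467725-148467925 held 48.1, 33.1, 46.0 and 34.5 in WT in Ctrl and 85.3, 105, 117 and 79.5 in its Paused match, a centred difference of 1.15. Inside Insr, chr8:3194523-3194723 held 19.2, 14.3, 18.6 and 20.5, then 49.7, 51.5, 42.1 and 42.4, a difference of 1.22. Inside Mapkap1, chr2:34486317-34486517 held 13.9, 9.85, 16.4 and 11.9, then 43.2, 27.9, 32.4 and 29.1, a difference of 1.20. At these 3, every Paused library of WT was above every Ctrl one. Downward, near Wdr59, chr8:111523878-111524078 held 29.9, 18.8, 28.5 and 31.3, then 17.3, 7.51, 4.32 and 11.9, a difference of -1.41. Inside Grb10, chr11:11961042-11961242 held 29.9, 35.8, 39.4 and 37.7, then 18.4, 17.2, 21.6 and 14.6, a difference of -1.05. The stronger interval at chr7:68166720-68166920 inside Igf1r held 110.0, 114, 96.4 and 83.0 in Ctrl, then 70.2, 53.7, 51.8 and 53.0, a difference of -0.90. The WT libraries of the 2 tables did not overlap at any of the 6, and the KO lines had the same sign (0.71 and 0.71 at Mtor, 0.51 and 0.64 at Insr, 0.78 and 0.90 at Mapkap1, -0.73 and -1.19 at Wdr59, -0.70 and -0.60 at Grb10, and -0.84 and -0.49 at Igf1r). At an Akt2 interval with a WT difference of -0.99 the KO values were -0.11 and -0.16, and the difference between lines was not tested.

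For some members the strongest interval near the start was not the same one in both tables, so no difference was taken. Rragd, a Rag GTPase, held 269, 220.1, 175 and 256 in WT at chr4:32982805-32983005, in the capitals printed above, in Paused, whereas the Ctrl interval lay at chr4:32983255-32983455, inside the gene, and held 47.0, 47.5, 44.9 and 43.1. For Lamtor3, Rictor, Tbc1d7 and Eif4ebp1 the intervals were 160, 194, 184 and 215 bases apart. These values belong to different sites and are not a change.

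The members' promoters were searched on both strands for 5 short motifs, none of which contains another. CACGTG, the E-box core of the element bound by TFEB and MYC, was in 9 of 50 member promoter windows (300 bases each, some genes having more than 1), beside 7.84% of 21263 windows. The ETS-type CCGGAAGT was in 7 of 50, beside 5.15%. CAGAC, part of the Smad element, was in 26 of 50, beside 48.4%, and TGACGTCA (2.23% of all windows) and ATTTGCAT (1.66%) were in 0 of 50. The E-box genes were Eif4e, Eif4g1, Irs1, Irs2, Lamtor1, Lamtor4, Rheb, Rragc and Tbc1d7, and the ETS-type genes Akt1s1, Mapkap1, Mtor, Nprl2, Pik3ca, Rraga and Tsc2. The Mtor match starts 237 bases before the gene start, outside the start interval. The 250 bases before Lamtor4 (chr5:138255232-138255481, plus strand) and Rheb (chr5:24842362-24842611, minus strand) are printed with the E-box in capitals, since Lamtor4 holds 2 of them and its start was called in Paused.
Lamtor4: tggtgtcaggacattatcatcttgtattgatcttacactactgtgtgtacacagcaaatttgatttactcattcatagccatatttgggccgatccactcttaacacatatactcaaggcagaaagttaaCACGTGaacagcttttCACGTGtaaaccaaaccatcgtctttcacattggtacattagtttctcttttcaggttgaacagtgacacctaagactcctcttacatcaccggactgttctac
Rheb: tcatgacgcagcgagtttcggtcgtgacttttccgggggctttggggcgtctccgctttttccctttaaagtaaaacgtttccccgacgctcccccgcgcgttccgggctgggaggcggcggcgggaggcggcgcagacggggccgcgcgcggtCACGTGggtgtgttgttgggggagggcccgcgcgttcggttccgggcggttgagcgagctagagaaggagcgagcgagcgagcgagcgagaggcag

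The start intervals of Lamtor4 and Rheb had 0 of these 250 bases in Paused. A match is a run of letters and not a shown binding site.

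A second list of 52 mTOR pathway genes that are not members, such as sestrins, folliculin, TFEB, Ulk kinases and the AMPK beta and gamma subunits, had 703 tested intervals in Ctrl and 679 in Paused. In Ctrl 30 were called in both KO lines (15 higher, 15 lower), 4.27% beside 7.15% of all intervals, and in Paused 92 (61 higher, 31 lower), 13.5% beside 13.9%. At their starts 2 of 48 were called in Ctrl, beside 3.28% of all gene starts, and 5 of 44 in Paused, beside 13.2%, all lower, and the WT pausing difference had a median of 0.24 over 41 matched starts. The largest changes in Ctrl were at Phlpp1, a phosphatase that acts on Akt (chr1:106199763-106199963, 117 ± 7.79 in WT, 57.2 ± 7.92 and 59.9 ± 9.71 in the KO lines, SD, n = 4), Cab39 (11.2 in WT, 27.8 and 25.5) and Prkab2 (47.0 in WT, 22.0 and 20.7). In Paused they were at Fnip2, a partner of folliculin (12.6 in WT, 29.2 and 28.5), and at 2 intervals of Pik3cb (16.8 in WT, 33.4 and 35.3; 12.2 in WT, 26.2 and 25.4). All 6 passed in both lines (adjusted p from 1.86e-06 to 0.0026).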

How the data were processed

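Deposited ATAC-seq signal of 24 libraries was used, in a Ctrl and a Paused table. Per the file headers, the signal is 1 value per library and interval, and its low values are whole multiples of 1 step per library, so the deposited signal is reads divided by a factor of the authors. The submitters' processing notes name FastQC, Trim Galore, Bowtie2 2.4.1, MACS3 3.0.3, DiffBind 3.16.0 and mm10. Duplicate handling and read shifting are not given in the sources used here. The authors' deposited log2 fold change, p-value and false discovery rate compare 8 KO with 4 WT libraries.

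Members and lists were chosen with earlier results of these data known. Intervals with a value of at least 10 in at least 4 of 12 libraries were fitted per table with limma 3.58.1 (R 4.3.3; trended empirical Bayes) on log2(value + 1), with groups as the only term and Benjamini-Hochberg adjustment. All adjusted p-values come from this limma fit unless edgeR 4.0.16 (quasi-likelihood) or DESeq2 1.42.0 is named; both used the recovered reads. Tables were matched where intervals overlapped by at least 50% of each. Scripts were tested on simulated data. By a preset rule, values were named for the start intervals called, up to 6, and those of 9 preset members. The rule also took the 5 largest called intervals per table and direction with a mean of at least 20. Size there was the smaller change of the lines. The 8 largest WT pausing differences completed it. Outside the rule, values are given for the starts of Lamtor4, Lamtor3 and Rragd and for intervals chosen after their values were seen. Alternatives were other scalings, tools, filters, pseudocounts, windows and left-out libraries; leaving out library 2 of both KO lines was chosen after seeing the data. Same-numbered libraries are not said to share an animal, culture or day.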

Additional observations from a re-analysis of the deposited data

Results flagged for a closer look

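In 6 of 153 groups of 4 libraries at the named intervals, 1 library stood far from the other 3 by Dixon's criterion at 95%. Chance flags about 1 in 20 groups, which would be 7.65 groups here. At the Rheb start in Ctrl, Smad2_KO1 library 2 held 322 normalised reads and the other 3 held 401 to 415. At the Eif4ebp1 start in Ctrl, Smad2_KO2 library 3 held 99.9 and the others 125 to 129. At the Igf1r interval that starts at 68021845 in Ctrl, Smad2_KO1 library 2 held 18.5 and the others 15.0 to 15.4. In Paused, WT library 3 held 8.63 at the Deptor interval that starts at 55195773, beside 10.6 to 10.8. Smad2_KO2 library 2 held 63.0 at the Deptor interval that starts at 55199703, beside 39.4 to 42.0. The same library held 57.0 at the Mapkap1 interval that starts at 34570464, beside 60.6 to 61.3.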

How the results depend on the processing

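None of the 51 named intervals reversed under the alternatives run, but the balance of all member calls turned with the scaling: 26 higher and 20 lower in Ctrl became 16 and 26 with size factors and 16 and 25 with TMM factors, and 55 and 28 in Paused became 31 and 50, and 32 and 48. In Ctrl the 46 called member intervals became 20 with DESeq2, 99 with the 8 KO libraries as 1 group, 70 with KO libraries averaged by number, 25 without library 2 of both KO lines, 7 when the absolute log2 change also had to reach 1, and 30 to 46 with 1 library left out. The 83 in Paused became 42, 188, 107, 36, 17 and 46 to 105 under the same settings. With the KO libraries as 1 group or averaged, a call rests on 1 comparison with WT and not on agreement of the 2 lines. Shares of all intervals are given above only for the setting without library 2 of both KO lines. The other interval counts in these settings therefore cannot be set against the genome. The 0 Ctrl starts became 1 with size factors, 1 with TMM factors, 2 with the 8 KO libraries as 1 group and 0 to 1 with 1 library left out (1 without WT library 3). The 9 Paused starts became 16, 15, 16 and 4 to 15, and 5 without library 2 of both KO lines and 0 at the fold threshold. The other pathway calls became 19 in Ctrl and 55 in Paused without library 2 of both KO lines. The pausing median of 0.21 was 0.30 not centred, 0.043 within deciles of level, 0.13 in Smad2_KO1, 0.065 in Smad2_KO2 and 0.20 to 0.22 with 1 library left out. The cause was not tested, and leaving out a library raised some counts as well as lowering others. With the library number as a replicate block the counts were 50, 0 and 35 in Ctrl and 99, 10 and 110 in Paused (member intervals, member starts, other pathway intervals), and the pausing median was 0.21; the numbers do not pair the samples by the labels, and deviations of same-numbered WT and KO libraries correlated at -0.007 to 0.063. Those of same-numbered Smad2_KO1 and Smad2_KO2 libraries had correlations between 0.008 and 0.11 (Ctrl, median 0.044) and between 0.034 and 0.19 (Paused, median 0.10), beside medians of -0.025 and -0.028 for other numbers. For the 51 named intervals, 1083 of 1122 comparisons stayed on the same side of the threshold, 30 lost and 9 gained a call. Many of the 51 are starts that were not called, so this is not the stability of the calls alone. The Lamtor4 start, whose call was lost in 9 of 12 fits with 1 library left out, is not among them. At the weak intervals, near the minimum of 10 normalised reads, depth limits what can be told apart.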
